A study of Mus musculus with 8 samples.

Results

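The 9 genes described here restrain or report signalling through the kinase ERK: the Sprouty genes Spry1, Spry2 and Spry4, the Sprouty-related genes Spred1 and Spred2, the phosphatase genes Dusp4 and Dusp6, and the ETS-factor genes Etv4 and Etv5. These 9 were taken from a list by name, and all 9 were found among 21887 protein-coding mouse genes. For each gene, peaks in the gene or within 10 kb of it were collected from 4 deposited peak lists made by chromatin immunoprecipitation and sequencing (ChIP-seq). Acetylated histone H3 (H3ac), a chromatin mark of active promoters and enhancers, was mapped on days 2, 4 and 6 of differentiation, and the histone deacetylase HDAC1, precipitated through a FLAG tag, on day 2. All cells came from 129/Ola mouse embryonic stem cells, pluripotent cells of the early embryo, left to differentiate on gelatin in N2B27, a medium without serum in which many cells become neural. Whether the cells used for H3ac also carried the FLAG tag is not stated in the labels. A single ChIP library with its input stood for each target on each day (8 libraries), so no difference between days has a replicate check and no p-value was computed. In bulk chromatin, a mark carried by fewer cells and a weaker mark in each cell cannot be told apart.

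Fibroblast growth factors and other ligands of receptor tyrosine kinases activate a chain of Ras, Raf, MEK and ERK. Active ERK switches on genes whose products dampen the same chain, and this negative feedback sets how long and how strongly a cell responds. Sprouty and Spred proteins act near the receptor and on Ras and Raf, Dusp4 and Dusp6 remove phosphates from ERK in the nucleus and the cytoplasm, and Etv4 and Etv5 are transcription factors that carry out part of the FGF response. In mouse embryonic stem cells, FGF and ERK signalling promotes the exit from self-renewal and entry into differentiation.

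The 9 genes fell into 3 groups by the days on which they carried H3ac. Spry2, Spred1, Spred2, Dusp4 and Dusp6 had such a peak on all 3 days. Spry1 and Spry4 had one on days 2 and 4 but not on day 6. Etv4 and Etv5 were marked on day 2 alone. The counts of genes with a peak were therefore 9, 7 and 5 of 9 on days 2, 4 and 6, where 54.7%, 50.5% and 30.8% of all protein-coding genes had one. Of the genes in the genome with a day 2 peak, 49.4% had peaks on all 3 days, 32.2% on days 2 and 4 only, and 15.6% on day 2 only. The split depended on low-scoring peaks. With the higher-scoring 50% of each list, or with equal numbers of highest-scoring peaks, Spry1 and Spry4 had no day 4 peak and Etv4 had no H3ac peak on any day. The genes marked were then 8, 5 and 5, and no gene was marked on days 2 and 4 only. Shares of all genes under these settings are not given, so these counts cannot be set against the shares above. Spry2, Spred1, Spred2, Dusp4 and Dusp6 had peaks on all 3 days under both settings. Within 1 kb of a gene start the counts were again 9, 7 and 5, against 41.6%, 39.4% and 23.7% of all genes. Gene starts came from the promoter table of RefSeq, and for the genes it lacks, Spry4, Dusp4 and Etv4 among them, either gene end was used.

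**Figure D1:**
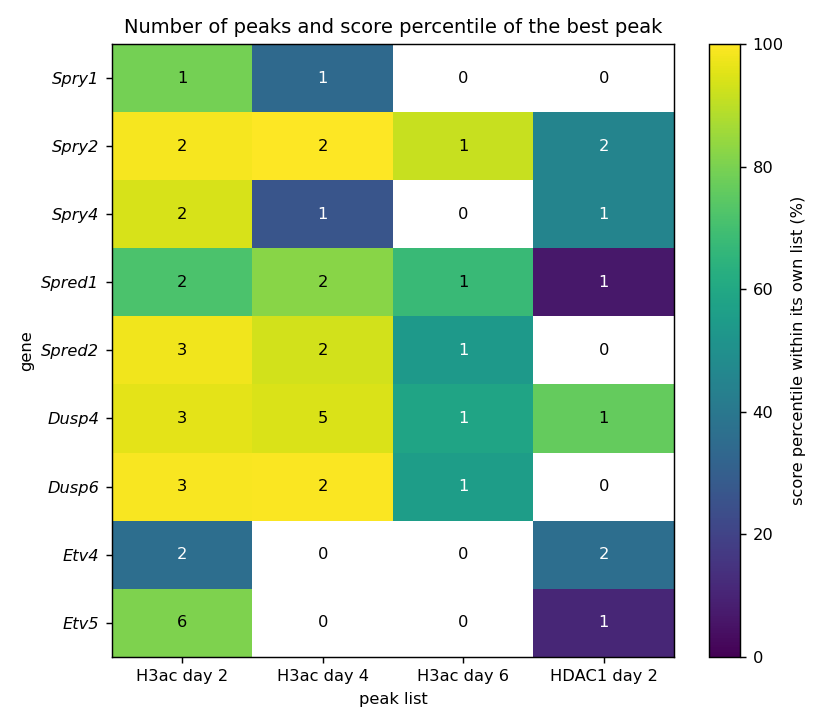
Number of peaks in or within 10 kb of each gene (printed in each cell) and the score percentile of the best of them within its own list (colour, %), for 3 H3ac lists and 1 HDAC1 list. White cells have no peak. Etv4 and Etv5 are white on days 4 and 6, and Spry1 and Spry4 on day 6.

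The lists differ in ways that touch all of these counts. They held 17368, 12945 and 5553 H3ac peaks on days 2, 4 and 6, with median widths of 591, 792 and 1898 bp, and 5286 HDAC1 peaks. Each peak has a score given by the authors, whose scale is not stated and whose lowest value is 50 in each list. Percentiles below give the share of peaks in the same list with that score or a lower one, and neither scores nor percentiles show a change between lists. A gene with no listed peak can still carry the mark below the authors' cut-off.

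Cell type markers were counted in the same lists. Peaks in or within 10 kb were found at 5, 4 and 2 of 5 pluripotency genes (Pou5f1, Nanog, Zfp42, Esrrb, Sox2) on days 2, 4 and 6, and at 2, 4 and 2 of 4 neural progenitor genes (Sox1, Pax6, Nes, Zic1). The 2 pluripotency genes with a day 6 peak were Nanog (best score 61.33, percentile 11.7) and Sox2 (1070.72, percentile 99.6). Pou5f1 had peaks on days 2 and 4 (best scores 1035.01 and 76.81) and none on day 6. Sox2 was counted in the pluripotency list only, and these counts do not measure how many cells were of either type. None of 4 mesendoderm genes had one on any day. One of 4 extraembryonic endoderm genes had one on day 2 and none later, and 1, 1 and 0 of 4 fibroblast genes had one. The part of these marker genes' cell types in the results below, those of Etv4 and Etv5 included, was not tested.

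The Sprouty genes encode inhibitors that act between receptor and Raf. Spry2 carried the most highly ranked acetylation of the 3. Its main day 2 peak (chr14:105895002-105897025 in build mm10) had a score of 594.52, percentile 98.8, and ran from 206 bp before the gene start to 1817 bp inside the gene, which is 4873 bp long. The peak over the same start was 4226 bp wide on day 4, with a score of 1350.60 and rank 10 of 12945, and 4349 bp wide on day 6, with a score of 405.48 and percentile 91.6. On days 4 and 6 it reached 3964 and 3980 bp into the gene, so most of the gene lay inside an H3ac peak. A smaller upstream peak stood 1524 bp from the start on day 2 (score 51.21) and 1478 bp on day 4 (135.74), and had no counterpart on day 6. The sequence before the start is shown because 206 of its 250 bases lay in the day 2 peak and all 250 in the day 4 and day 6 peaks. It is from RefSeq (assembly GRCm38.p6, numbered like mm10), chr14:105896820-105897069, minus strand, read 5′ to 3′ up to the base before the start, with the bases inside the day 2 H3ac peak in capitals.
Spry2: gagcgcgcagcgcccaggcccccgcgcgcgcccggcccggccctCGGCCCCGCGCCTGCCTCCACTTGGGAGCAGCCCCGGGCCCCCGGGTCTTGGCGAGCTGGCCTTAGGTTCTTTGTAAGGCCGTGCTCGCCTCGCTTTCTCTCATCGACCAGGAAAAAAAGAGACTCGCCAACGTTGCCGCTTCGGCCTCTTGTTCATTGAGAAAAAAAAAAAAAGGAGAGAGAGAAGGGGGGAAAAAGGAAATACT

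Spry1 was marked more narrowly. Its single day 2 peak (score 160.65, percentile 79.0) was 587 bp wide and lay 54 to 640 bp inside the gene. The single day 4 peak (73.50, percentile 34.0) was 569 bp wide and overlapped it by 513 bp. The nearest day 6 peak lay 220 kb away. Its start peaks were thus narrower than those of Spry2, which were 2024 bp wide on day 2 and 4226 bp on day 4.

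Spry4 lies on chromosome 18 from 38586247 to 38601347. It had a day 2 peak of score 321.23 (percentile 94.1, 1748 bp wide, 38599581 to 38601328) that ended 19 bp inside its higher-coordinate end. A second day 2 peak (95.14, 695 bp) followed 58 bp further out and overlapped Arhgap26, the neighbouring gene, which encodes a GTPase-activating protein. The list does not say to which of these genes that peak belongs. On day 4 the end carried 1 peak of 675 bp with a score of 64.79, percentile 26.4. No peak lay within 10 kb on day 6, and the nearest was 166 kb away, in or within 1 kb of Ndfip1.

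Spred proteins share the Sprouty domain and hold back Ras and Raf. Both Spred genes are long, 61.2 kb for Spred1 and 99.6 kb for Spred2, and their acetylation clustered at the start. Spred2 had a day 2 peak of score 472.13 (percentile 97.7) on chromosome 11 from 19923964 to 19926298, which covered the start and reached 1856 bp into the gene. The day 4 peak (344.02, percentile 93.1) overlapped it but began 162 bp inside the gene and left the start uncovered. The day 6 peak (134.84, percentile 54.1) covered the start again. A weak site 4164 bp upstream on day 2 (55.13) and 4040 bp upstream on day 4 (51.21) was not listed on day 6. A day 2 peak 81228 bp inside the gene (77.24) was not listed later.

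Spred1 had its start in a gap between peaks. On day 2 a peak of 551 bp ended 252 bp before the start (score 115.88) and another lay 968 to 1838 bp after it (127.71), leaving 1219 bp unmarked between them. On day 4 the flanking peaks scored 81.62 and 221.88, and the gap was 1115 bp. On day 6 the upstream peak was not listed, and 1 peak of 2298 bp (183.42, percentile 67.6) began 289 bp after the start. The upstream sequence of Spred1 is shown because an HDAC1 peak reached 56 of its 250 bases, in capitals below, while no base of it lay in a day 2 H3ac peak and 136 lay in a day 4 peak. It is chr2:117120821-117121070, plus strand, from RefSeq GRCm38.p6.
Spred1: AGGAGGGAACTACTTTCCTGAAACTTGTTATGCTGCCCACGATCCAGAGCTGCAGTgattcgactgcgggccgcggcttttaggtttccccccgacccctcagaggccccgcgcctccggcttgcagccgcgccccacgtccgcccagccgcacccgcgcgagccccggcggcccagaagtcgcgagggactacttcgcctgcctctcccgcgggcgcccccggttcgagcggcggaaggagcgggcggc

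The Dusp genes encode phosphatases that inactivate ERK. Dusp6 carried the highest day 2 score of the 9 genes. Its peak just inside the gene (chr10:99263322-99265543) had a score of 670.23, rank 153 of 17368, and the peak just before the gene (chr10:99261286-99263099) had 505.68, percentile 98.1. Between them lay 222 bp with no peak, which held the gene start. On day 4 the inner peak scored 759.44 (rank 81 of 12945) and covered the start, the outer peak scored 280.53, and the gap was 132 bp. On day 6 a single peak of 5028 bp (139.43, percentile 55.7) covered both sides and the start. A further day 2 peak, 2300 bp upstream with a score of 50.42, lay just above the lowest score in the list, and the day 4 and day 6 peaks overlapped it by 12 and 356 bp. The upstream sequence, chr10:99262981-99263230 on the plus strand, shows the edge of the day 2 gap, with the 119 bases in the outer day 2 peak in capitals and the 131 bases of the gap in lower case. All 250 bases lay in the day 6 peak.
Dusp6: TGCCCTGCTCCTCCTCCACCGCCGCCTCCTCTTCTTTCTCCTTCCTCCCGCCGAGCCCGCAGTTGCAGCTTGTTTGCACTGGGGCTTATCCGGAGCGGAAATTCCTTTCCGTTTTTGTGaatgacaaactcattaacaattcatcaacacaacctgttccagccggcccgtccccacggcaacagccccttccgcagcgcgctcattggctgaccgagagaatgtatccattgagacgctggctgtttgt

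Dusp4, on chromosome 8 from 34807610 to 34819894, had 5 peaks on day 4, more than the other 8 genes in the full list. On day 2 its lower-coordinate end carried a peak of score 379.52 (percentile 96.1, 2216 bp wide), with weaker peaks 2117 bp outside that end (68.23) and 8175 bp inside it (63.76). As many day 4 peaks or more were found at 1.06% of all protein-coding genes. The minimum of 5 was taken from Dusp4 itself, so this share is a description only. The count of 5 depended on the settings, with 3 peaks within 1 kb of the gene. Under either selection of higher-scoring peaks it was 2, as at Spry2 and Dusp6 with the same selection. The strongest day 4 peak (369.16, percentile 94.2) covered the same end, with neighbours 119 bp and 95 bp to either side of it (148.74 and 99.64) and a weak peak 5166 bp beyond the other end (55.24). On day 6 there was 1 peak of 3720 bp (147.49, percentile 58.3). It began outside the gene and ran across the positions of both central day 4 peaks.

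**Figure D2:**
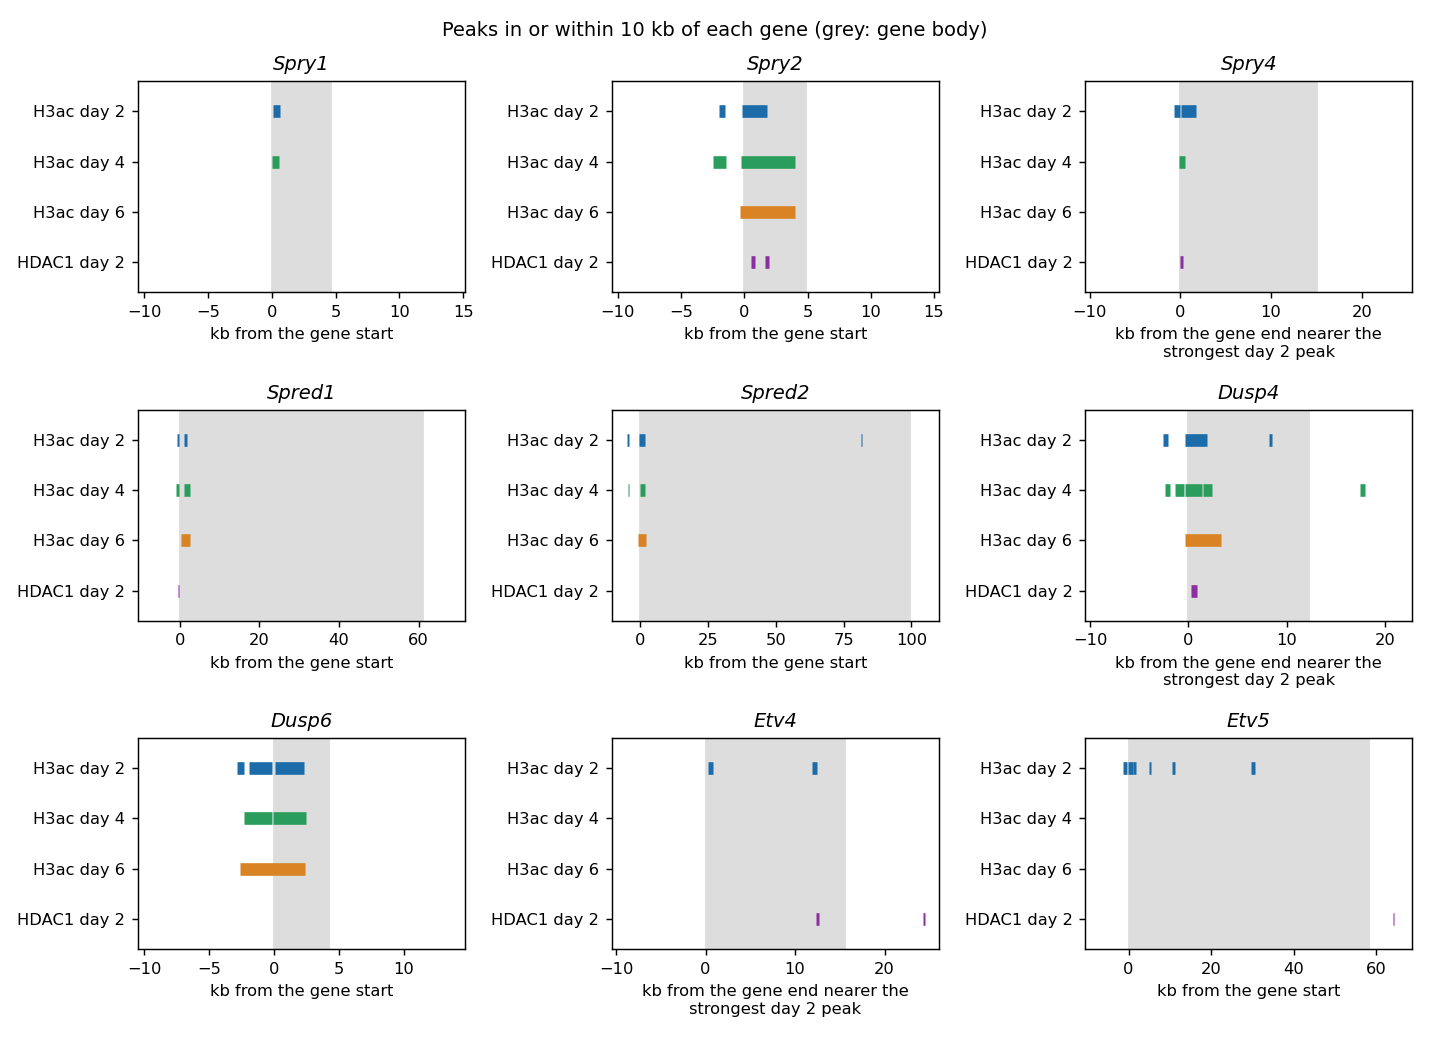
Peaks in or within 10 kb of each of the 9 genes, by distance in kb from the gene start, with the gene body in grey and 1 row for each H3ac day and for HDAC1. Distances run into the gene to the right, and for Spry4, Dusp4 and Etv4 they are counted from the gene end nearer the strongest day 2 peak. Wide day 6 peaks cover the start of Spry2, Dusp6 and Spred2 and the lower-coordinate end of Dusp4, and Etv4 and Etv5 have H3ac on day 2 only.

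Etv4 and Etv5 encode closely related ETS transcription factors of the PEA3 group. Etv5 had 6 H3ac peaks on day 2, more than the other 8 genes in the full list. With the higher-scoring 50% of the list it had 4, and with equal numbers of highest-scoring peaks 1, where Dusp6 had 2. Their scores were 72.45, 76.71, 89.15, 95.65, 116.43 and 169.84, so none was above percentile 80.6. Both annotated starts of Etv5 lay in a peak, with a further peak 422 bp upstream of the outer start. Gaps of only 21 and 308 bp separated these 3 start peaks, so the count of 6 depends on how they were split. Inside the gene lay 3 more, 4879, 10577 and 29637 bp from the outer start. No H3ac peak lay in or within 10 kb of Etv5 on day 4 or day 6, and the nearest were 109 and 114 kb away. The minimum of 6 in the next comparison was taken from Etv5 itself, so it is a description only. In the genome 299 genes had at least 6 day 2 peaks in or within 10 kb, and 5 of them (1.67%) had none on days 4 and 6. These 5 were Etv5, Cacng8, Nav2, Otx2 and Unc5b. Neither Etv5 nor, by its gene ends, Etv4 had a start peak after day 2, and of this pair only Etv5 had a promoter window. The Etv5 sequence before the outer start (chr16:22439571-22439820, minus strand) is shown, with the 113 bases inside the day 2 peak in capitals.
Etv5: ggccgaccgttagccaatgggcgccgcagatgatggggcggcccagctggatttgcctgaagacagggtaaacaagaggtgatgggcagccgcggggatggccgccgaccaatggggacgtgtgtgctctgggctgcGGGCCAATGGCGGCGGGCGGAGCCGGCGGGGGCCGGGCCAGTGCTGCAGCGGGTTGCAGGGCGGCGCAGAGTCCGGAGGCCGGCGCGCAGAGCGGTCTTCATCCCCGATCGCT

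Etv4, on chromosome 11 from 101769747 to 101785310, was weakly marked. Its day 2 peaks had scores of 66.85 (percentile 36.3, ending 224 bp inside the higher-coordinate end) and 54.07 (percentile 12.1, 3138 bp inside the other end). On days 4 and 6 the nearest H3ac peaks were 35.9 and 178 kb away. Both scores were near 50, the lowest listed, and a peak just under the cut-off on a later day would not appear in its list.

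Measured as length, acetylation at the 9 genes came to 24.1, 20.2 and 18.2 kb of peaks on days 2, 4 and 6, in 24, 15 and 5 peaks. The whole lists covered 12.8, 11.9 and 11.6 Mb on the same days. The median width of these peaks was 672, 935 and 3720 bp, against 591, 792 and 1898 bp over the whole lists. The whole lists take in peaks anywhere. Of the members' peaks, 14 of 24, 9 of 15 and 5 of 5 covered or lay within 1 kb of a gene start. Widths of start peaks alone over all genes are not given. Dusp6 had 4.57, 4.64 and 5.03 kb covered on the 3 days and Spry2 2.502, 5.204 and 4.349 kb. Spry4 had 2.44, 0.675 and 0 kb, and Etv5 5.14, 0 and 0 kb. The total therefore hid opposite orders within the set, since Dusp6, Spry2, Spred1 and Dusp4 had more covered on day 6 than on day 2, and the other 5 had less.

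**Figure D3:**
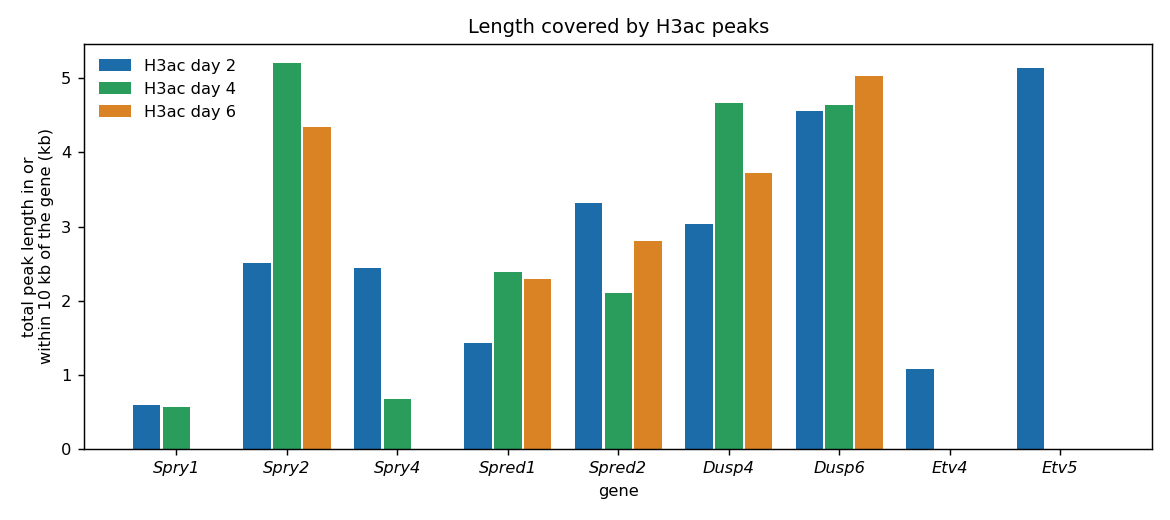
Total length of H3ac peaks in or within 10 kb of each gene, in kb, on days 2, 4 and 6 (bars, 1 library each). Dusp6 stays between 4.57 and 5.03 kb, and Etv5 has 5.14 kb on day 2 and 0 later.

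The single day 2 peaks were then followed forward. An overlap of 1 bp or more with day 4 was found for 14 of the 24 (58.3%) and with day 6 for 7 (29.2%), against 50.2% and 35.0% of all day 2 peaks. By gene group, the Spry genes kept 5 of 5 on day 4 and 1 of 5 on day 6, the Spred genes 4 and 2 of 5, the Dusp genes 5 and 4 of 6, and the Etv genes 0 and 0 of 8. In the whole list overlap was more frequent at higher scores. In decile 9 of day 2 peaks by score, where the strongest Etv5 peak stands, 88.0% of peaks overlapped a day 4 peak and 56.2% a day 6 peak. That Etv5 peak was at percentile 80.6, the lower edge of decile 9, and in decile 8 the shares were 76.3% and 49.9%. The other 7 Etv peaks lay in deciles 2 to 7, where day 4 overlap was 19.5 to 64.3%. In the opposite direction, 13 of the 15 day 4 peaks and all 5 day 6 peaks overlapped a day 2 peak, against 63.9% of all day 4 peaks and 79.6% of all day 6 peaks. The whole lists also hold peaks away from any gene with a day 2 peak, whereas all 9 genes had one at the start. The 2 day 4 peaks without one were both at Dusp4.

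**Figure D4:**
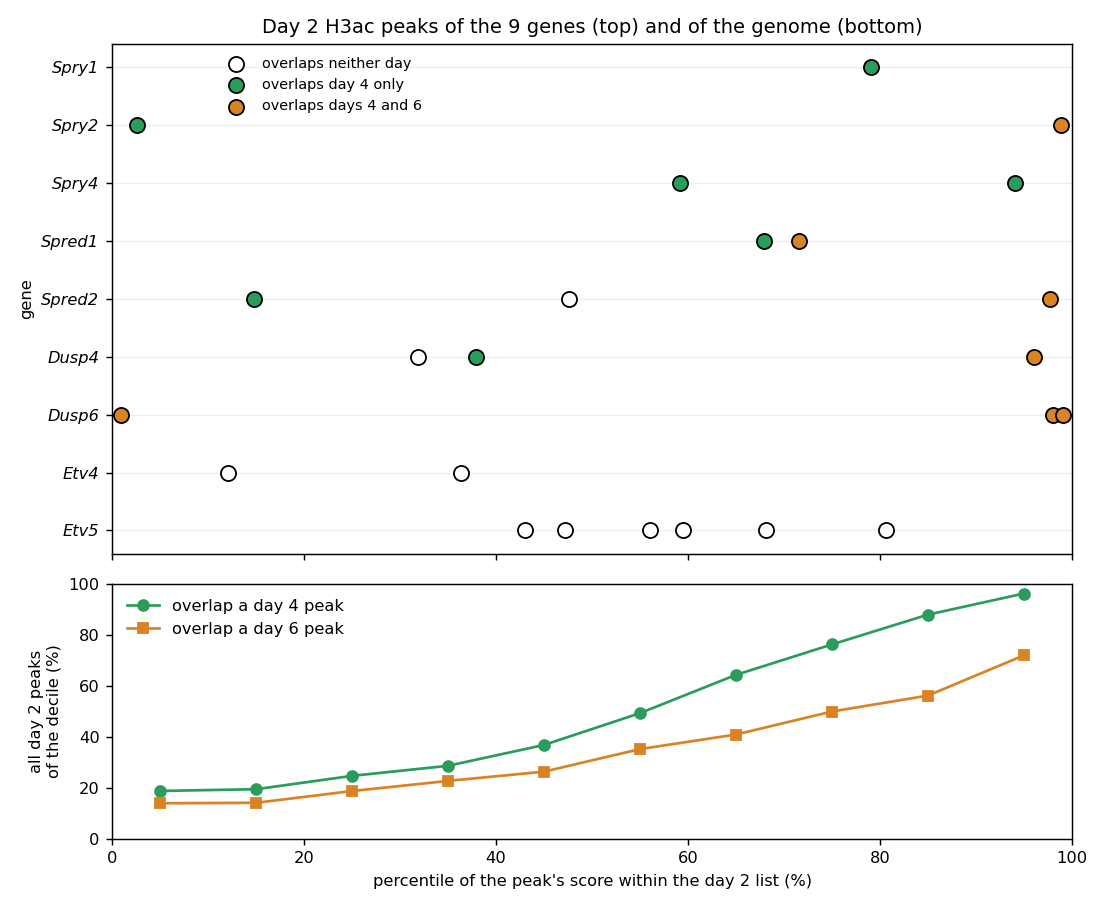
Top, each day 2 H3ac peak of the 9 genes by its score percentile within the day 2 list (%), filled by whether it overlapped a peak on day 4, on days 4 and 6, or on neither. Bottom, the share of all day 2 peaks in each score decile that overlapped a day 4 or day 6 peak (%). All 8 peaks of Etv4 and Etv5 are empty circles.

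HDAC1, a class I deacetylase that removes acetyl groups from histones, was present in the day 2 list near 6 of the 9 genes, against 21.5% of all protein-coding genes and 32.4% of those with a day 2 H3ac peak. No HDAC1 peak was listed near Spry1, Spred2 or Dusp6. Within 1 kb of a gene start it was found at 4 of 9 (Spry2, Spry4, Spred1 and Dusp4), against 9.37% of all genes. This is not a like comparison, since all 9 had a day 2 H3ac peak there, and 41.6% of all genes did. The HDAC1 share among genes with such a start peak was not computed. For Spry4 and Dusp4 either gene end stood for the start. The 8 HDAC1 peaks had scores from 51.03 to 89.29, where the list median was 65.37, and of them only that of Dusp4 exceeded the median. With the higher-scoring 50% of the HDAC1 list, Dusp4 was the 1 gene left.

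Most of these HDAC1 peaks overlapped acetylated chromatin by at least 1 bp. Of the 8, 6 overlapped a day 2 H3ac peak, against 27.7% of all HDAC1 peaks. These shares are not like for like. The 8 lay near genes that all had a day 2 H3ac peak, and the 27.7% takes in HDAC1 peaks anywhere. In turn, 6 of the 24 day 2 H3ac peaks overlapped HDAC1, against 8.26% of all. With overlap by 50% of the shorter peak required, 4 of the 24 did. HDAC1 overlap was also more frequent at higher H3ac scores, at 22.9% in decile 10, which held 6 of the 24 peaks, and 3 of those 6 overlapped HDAC1. With the higher-scoring 50% of each list the overlap was 1 of 14 peaks, and with equal numbers of highest-scoring peaks 3 of 9. At Dusp4 the HDAC1 peak (89.29, 654 bp) lay wholly inside the H3ac peak, 221 to 874 bp into the gene. Spry2 had HDAC1 peaks 524 to 864 bp (62.74) and 1657 to 1913 bp (52.48) inside the gene, the first wholly and the second partly within H3ac. At Spry4 an HDAC1 peak (62.79) bridged the 58 bp between the day 2 H3ac peaks. At Spred1 it (51.09) covered the inner edge of the upstream H3ac peak, overlapping it by 204 bp. At Etv4 the overlap was 32 bp, at the internal site (51.03). A second HDAC1 peak assigned to Etv4 (59.05) lay 8697 bp away inside Dhx8, an RNA helicase gene, and that of Etv5 (52.07) lay 5889 bp beyond the far end of the gene, and neither overlapped H3ac. In or within 10 kb of the gene, HDAC1 was listed at 3 of the 5 genes marked on all days and at 3 of the other 4. Within 1 kb of a gene start it was listed at Spry2, Spred1 and Dusp4 of the first group. Of the others it was at the start of Spry4 only, and at 0 of the 2 Etv genes. Whether HDAC1 goes with the day groups was not tested.

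Windows of 250 bases before the start were matched in RefSeq for 6 of the 9 genes (7 windows, since Etv5 has both starts). They were searched on both strands for the ETS site CCGGAAGT and its shorter form CCGGAA, the cyclic AMP response element TGACGTCA, the AP-1 site TGACTCA, the E-box CACGTG and the GC box GGGCGG. The GC box was the only one found. It occurred 3 times before the outer start of Etv5, 2 times in Spred1 and once each in Spry1 and Spred2, and 32.7% of 32851 promoter windows held it. The windows of Spry2 and Dusp6 and that of the inner Etv5 start held none of these motifs. The other shares over all windows were 2.88% for CCGGAAGT, 12.0% for CCGGAA (which the longer site contains), 1.55% for the cyclic AMP element, 4.46% for AP-1 and 6.02% for the E-box. The share of G and C was above the median of all windows, 52.4%, in all 7. It ran from 56.0% in Spred2 (percentile 62.4 of all windows) to 71.2% before the outer start of Etv5 (percentile 92.7).

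The rest of the pathway gave a setting for these genes. Of 20 genes of the ERK cascade itself, which include adaptors, exchange factors, kinases and GTPase-activating proteins, 20, 19 and 16 had a peak in or within 10 kb on days 2, 4 and 6, and 15 on all 3 days. The adaptor genes Shc1 (412.61) and Frs2 (269.53) were among the 4 with the highest day 2 scores. HDAC1 peaks lay near 5 of the 20, among them Shc1 (261.11), Nf1 (215.38) and Map2k1 (69.53). Over all protein-coding genes, 54.7%, 50.5% and 30.8% had an H3ac peak on days 2, 4 and 6, and 21.5% had HDAC1. Among genes with a day 2 H3ac peak, 49.4% had peaks on all 3 days and 32.4% had HDAC1. Of 19 other feedback genes and ERK targets, 16, 15 and 7 had H3ac peaks, and 6 had HDAC1 (Dusp1, Dusp5, Il17rd, Ier2, Ccnd1 and Mcl1). Ccnd1 (1042.73), Ier2 (923.19), Mcl1 (441.21) and Myc (376.26) led this list on day 2. Of the relatives in this list, Spred3, Dusp1, Dusp5, Dusp7 and Etv1 had day 2 peaks, and Spry3, Dusp2 and Dusp9 had no peak in any list. Etv1, the other PEA3 factor, had peaks on every day (195.69, 80.95 and 173.86), where Etv4 and Etv5 had them on day 2 only.

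The best peak of each gene with a peak had a median percentile of 94.1, 93.1 and 58.3 over 9, 7 and 5 of the genes on days 2, 4 and 6, and 40.6 over 6 genes for HDAC1. Over all protein-coding genes with a peak the medians were 73.9, 69.0 and 55.6 for H3ac and 55.3 for HDAC1. With a gene without a peak counted as 0, the medians of the 9 genes were 94.1, 82.3, 54.1 and 10.7. The protein-coding genes with the profile nearest to the median of the 9, by Euclidean distance from these last 4 percentiles, were Fam118b (6.10), Nucks1 (7.16) and Hjurp (7.18). Each of these had peaks in all 4 lists.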

How the data were processed

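The data were 4 peak lists, 1 per ChIP library, with groups and days taken from the labels. The submitters' processing notes name Bowtie 0.12.8, an aligner, and the mouse build mm10. Names of the deposited peaks start with MACS, a peak caller; for its version and cut-off, and for how inputs entered, the sources used here give nothing. Each deposited list has a score per peak, made by the authors on an unstated scale, which was used only to rank and filter peaks within that list. Read depth was not used here.

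Genes came from the RefSeq table of assembly GRCm38.p6, which gives gene spans without exons, so no peak is assigned to an exon, intron or UTR. Peak starts were converted to 1-based coordinates. A peak belonged to a gene if it overlapped the gene or 10 kb to either side, and peaks of different lists were shared if 1 bp or more overlapped. Starts came from the RefSeq promoter table, and either gene end stood in where it has no entry. Shares of all protein-coding genes, or of all peaks on chromosomes 1 to 19, X and Y, stand beside the members' counts from the full lists. No test was run, since there are no replicates. Alternatives were gene windows of 1, 5 and 25 kb, start windows of 0.5 and 2.5 kb, other overlap rules, the higher-scoring 50% of each list and the 5286 best peaks of each list. The assignment and overlap rules were checked on planted peaks. Python 3.11.15, pandas 2.3.3, numpy 2.4.6 and scipy 1.17.1 were used.

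The members, the ERK cascade and target lists, the markers, the motifs and the rule for named genes were chosen with earlier results of these data known. Beyond all 9 members, the rule named the 4 genes of each further list with the highest day 2 score, those with an HDAC1 peak, neighbours that share a peak, and the 3 genes most like the median profile. Some genes that the rule named are not reported here. Spry3, Spred3, Dusp2, Dusp7, Dusp9, Etv1 and the genes sharing the Etv5 pattern were named after their values were seen.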

Additional observations from a re-analysis of the deposited data

How the results depend on the processing

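With gene windows of 1, 5 or 25 kb, start windows of 0.5 or 2.5 kb, overlap by 50% of the shorter peak, or a gap of up to 1 kb, every count over the 9 genes stayed within 1.5 times its reported value. Etv4 and Etv5 had no day 4 or day 6 peak with 25 kb either. The choice of peaks mattered more, and 13 of 68 recomputed counts moved beyond that range, all through it. With the higher-scoring 50% of each list, the members' peaks numbered 14 on day 2, 8 on day 4 and 1 for HDAC1, members with a start peak 4 on day 4 and 1 for HDAC1, members near HDAC1 1, and day 2 peaks overlapping HDAC1 and day 4 peaks 1 and 6. With equal numbers of highest-scoring peaks, the peaks numbered 9 and 8 on days 2 and 4, start-marked members 4 on day 4, and overlaps with HDAC1 and day 4 were 3 and 6, with 9 day 2 peaks left to overlap. Both settings remove low-scoring peaks by construction. They left Etv4 without any H3ac peak and removed the day 4 peaks of Spry1 and Spry4, equal numbers left Etv5 with 1 day 2 peak, and both left Dusp4 with 2 day 4 peaks. For single genes, 146 of 180 peak counts kept within the range. With 1 library per group no replicate could be left out.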
